A study of Oryctolagus cuniculus with 12 samples.

Results

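The probes of 8 genes of the inflammatory response were followed through aortic coarctation (CoA) and its correction in rabbits: IL6, IL1A, IL1B, TNF, IL10, CXCL8, CCL2 and SAA3. They were found by matching the RefSeq transcript of each probe to the rabbit gene symbol, which gave 30 probes for the 8 genes, of 3368 probes with a symbol and 43603 probes in all. IL6 had 5 probes, IL1A 4, IL1B 3, TNF 5, CXCL8 7 and CCL2 4, while IL10 and SAA3 had 1 each. The rule used no measured value, but the members were chosen with earlier results of these data known. Total RNA of 1 ring of aorta per rabbit, 4 mm long and cut between the coarctation and the left subclavian artery, was hybridised to 1 array with 1 dye, and all rabbits were male New Zealand whites sampled at 32 weeks of age. In the 4 CoA rabbits a permanent silk suture was tied around the aorta at about 10 weeks to give a gradient of 20 mmHg, and in the 4 Corrected rabbits the suture was Vicryl, which degrades. The 4 Control rabbits were non-experimental and had no sham operation, so surgery and suture are part of both comparisons with them. Corrected replicate 3 was excluded by its label and entered no test below except where it is said to be included. The paper describes it as an outlier with a bimodal distribution of intensities. Its median signal before normalisation between arrays was 8.85, against 20.4 to 64.0 on the other arrays. Its values are given where they bear on a gene.

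IL6, IL1A, IL1B and TNF are secreted by macrophages, smooth muscle cells and other cells of an inflamed vessel wall. IL1 and TNF act through NF-κB and AP-1 to switch on further cytokines and chemokines, among them IL6, CXCL8, which draws neutrophils, and CCL2, which draws monocytes. IL10 restrains this response, and serum amyloid A proteins such as SAA3 are acute phase proteins made in response to IL1, TNF and IL6 in the liver and also in other tissues.

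Values are quantile normalised log2 signals, so a difference of 1 is a 2-fold change, and the signals of different probes are not comparable with each other. A gene is represented by its brightest probe unless stated. Between 69.7% and 77.7% of the spots of a Control array were well above background, between 55.8% and 69.7% of a CoA array and between 45.6% and 68.5% of a Corrected array, and 0 spots were saturated. The labels name no slide or batch, so arrays that share a scan time in the file headers were taken as a scan group. All 4 CoA arrays formed a scan group with no array of another group. Scan group and coarctation therefore cannot be told apart in CoA vs Control or in CoA vs Corrected. Control replicates 1, 2 and 4 were scanned with Corrected replicate 2, Corrected replicates 1, 3 and 4 were scanned together, and Control replicate 3 was scanned on another day. All 6 smooth muscle and all 4 fibroblast and matrix markers with a probe were detected on all 12 arrays. A lower signal in such bulk tissue cannot tell fewer cells of a type from less RNA per cell.

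By their brightest probes, 7 of the 8 genes had a mean above Control in both CoA and Corrected rabbits, and IL10 was not measured well enough to compare. Other probes did not all share this direction: 2 of 5 TNF probes were above Control in each comparison, and 3 of 4 IL1A probes in Corrected. The arrays of one group differed widely and no probe passed adjustment. The criterion here was the lowest threshold of the study, a 2-fold change at an unadjusted p under 0.05. The paper drew its genes of interest at a higher fold change. In CoA vs Control, 28 member probes had been detected on 8 or more of the 12 arrays. Of these, 2 passed the criterion, against 8.81% of all 27287 probes tested. Both were IL1A probes and both were higher in CoA, the direction in which 3.59% of all probes passed, while 5.23% passed downward. In Corrected vs Control, 3 member probes passed, against 5.41% of all probes. These were 1 probe each of IL6, CXCL8 and SAA3, and all were higher in Corrected, where 2.42% of all probes passed and 2.99% passed downward. In CoA vs Corrected, 0 member probes passed, against 2.76% of all probes (1.44% higher in CoA and 1.33% lower). After Benjamini-Hochberg adjustment over all probes in limma, 0 member probes passed in each comparison, as did 0% of all probes. An unadjusted p under 0.05 was reached by 2 member probes in CoA vs Control (14.2% of all probes), by 3 in Corrected vs Control (8.37%) and by 0 in CoA vs Corrected (4.31%). The smallest adjusted p of a member probe by limma was 0.269 in CoA vs Control, 0.531 in Corrected vs Control and 1.00 in CoA vs Corrected. So few calls depended on single arrays: leaving out 1 array at a time gave 1 to 4 calls in CoA vs Control, 1 to 13 in Corrected vs Control and 0 to 4 in CoA vs Corrected, with the 13 and the last 4 reached without Corrected replicate 2. Without that array calls over all 27287 probes rose too, from 1475 to 2362 in Corrected vs Control and from 754 to 1779 in CoA vs Corrected.

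The median log2 fold change of the 7 genes tested was 0.61 in CoA vs Control, against 0.08 over all 956 genes with a symbol that were tested. It was 1.53 in Corrected vs Control, against 0.10, and -0.69 in CoA vs Corrected, against -0.03. Of the 956 genes, by their brightest probes, 54.6% had a mean above Control in CoA and 57.0% in Corrected. Of all probes, 54.5% had a mean above Control in CoA and 52% in Corrected. The first and second comparisons share the same 4 Control arrays. For IL6, IL1B, CXCL8, CCL2 and SAA3 the means were in the order Control, CoA, Corrected, and for IL1A and TNF in the order Control, Corrected, CoA. No 2 groups next to each other in these orders differed by the study's criterion for any of the 7 genes.

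**Figure D1:**
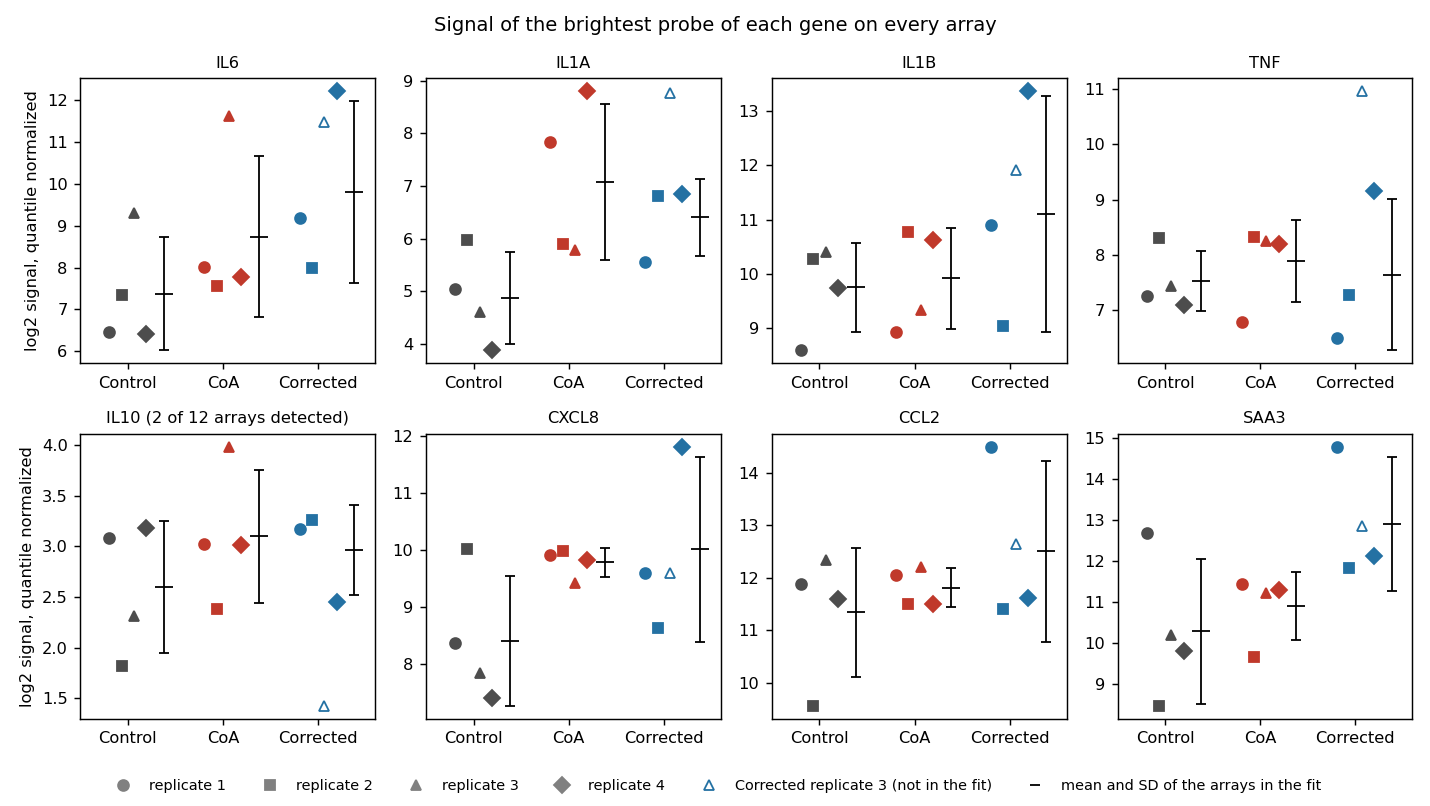
The vertical axis is the log2 signal of the brightest probe of each gene after quantile normalisation, with a scale of its own in each panel, and each point is 1 rabbit, shaped by its replicate number. Black bars are the mean and SD of the arrays tested (4 Control, 4 CoA, 3 Corrected), and the open triangle is Corrected replicate 3. IL6 in CoA, CCL2 and SAA3 in Corrected and IL1B in Corrected each have 1 rabbit far above the rest of its group.

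IL1A, one of the 2 forms of interleukin 1, was the only gene whose brightest probe passed the criterion in CoA vs Control. Its log2 signal was 5.05, 5.97, 4.61 and 3.89 in Control replicates 1 to 4, 7.83, 5.90, 5.79 and 8.80 in the CoA replicates, and 5.55, 6.81 and 6.84 in Corrected replicates 1, 2 and 4. CoA replicates 1 and 4 lay above every Control array, and CoA replicates 2 and 3 lay below Control replicate 2, so the groups overlapped. The log2 fold change of CoA vs Control was 2.20 ± 0.70 (SE, n = 4 and 4), or 4.60-fold, with an adjusted p of 0.269 in limma. An exact two-sided permutation of the arrays gave p = 0.0857. In Corrected vs Control the log2 fold change was 1.53 ± 0.75 (n = 3 and 4; adjusted p = 0.626 in limma), and in CoA vs Corrected it was 0.68 ± 0.75 (adjusted p = 1.00 in limma).

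IL1A passed the criterion in CoA vs Control under each of the 25 alternative settings that could be fitted, with leaving out any 1 array giving 1.63 to 2.63. Its size depended on the background correction, since normexp on the median signal gave 1.11, and on the choice of probe, since the mean of its probes gave 1.47. With array weights over all 12 arrays it was 3.54, the 1 setting in which it passed adjustment (adjusted p = 0.000443 in limma), and in the other settings its adjusted p ran up to 0.615. With those weights 11058 of all 27287 probes passed adjustment. The 3 probes of IL1A that were tested had log2 fold changes from 0.42 to 2.20 in CoA vs Control. In Corrected vs Control they had 1.53, 0.18 and -0.15, so the value given there is that of 1 probe. They correlated across arrays with r from 0.655 upwards. On all 4 of its probes the highest of the 11 arrays was CoA replicate 4. Corrected replicate 3 had a log2 signal of 8.77, near that of CoA replicate 4, and with it included the log2 fold change of Corrected vs Control was 2.12 (adjusted p = 0.348 in limma), past the criterion.

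IL1B, the secreted form of interleukin 1, had nearly the same mean in Control and CoA. The arrays read 8.59, 10.27, 10.41 and 9.74 in Control, 8.93, 10.77, 9.33 and 10.63 in CoA, and 10.90, 9.04 and 13.36 in Corrected replicates 1, 2 and 4. Corrected replicate 4 was 5.51-fold above the next array, and Corrected replicate 2 lay below 3 of the 4 Control arrays. Log2 fold changes were 0.16 ± 0.82 in CoA vs Control, 1.35 ± 0.88 in Corrected vs Control and -1.19 ± 0.88 in CoA vs Corrected (adjusted p = 0.949, 0.726 and 1.00 in limma). Without Corrected replicate 4, Corrected vs Control fell to 0.22, and within the 1 scan group that held both, Corrected replicate 2 alone lay 0.50 below the 3 Control arrays, a log2 fold change of -0.50. The highest array was Corrected replicate 4 on all 3 probes of the gene.

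TNF, the third of the early cytokines, differed little between the groups. Log2 signals were 7.25, 8.30, 7.43 and 7.10 in Control, 6.79, 8.32, 8.25 and 8.19 in CoA, and 6.50, 7.27 and 9.16 in Corrected replicates 1, 2 and 4. In CoA, 3 rabbits lay close together at the level of the highest Control rabbit and replicate 1 lay below all Control rabbits, while the Corrected rabbits spanned the whole range. Log2 fold changes were 0.37 ± 0.56 in CoA vs Control, 0.12 ± 0.61 in Corrected vs Control and 0.25 ± 0.61 in CoA vs Corrected (adjusted p = 0.789, 0.974 and 1.00 in limma).

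The 5 probes of TNF did not follow one pattern. The 2 brightest correlated with each other across the 11 arrays with r = 0.996, the other 3 with r from 0.925 to 0.958, and the pairs across these sets with r from 0.485 to 0.704. The 2 brightest had log2 fold changes from 0.37 to 0.46 in CoA vs Control, and the other 3 from -0.26 to -0.20. In Corrected vs Control the sets again had opposite signs, 0.12 to 0.25 and -0.38 to -0.27. The direction for TNF was therefore not settled, and the SE of each probe was near or above its change.

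IL6, the cytokine that drives acute phase proteins, showed the widest spread within groups. Its log2 signal was 6.47, 7.34, 9.30 and 6.40 in Control, 8.01, 7.56, 11.61 and 7.77 in CoA, and 9.19, 7.99 and 12.20 in Corrected replicates 1, 2 and 4. All CoA and Corrected rabbits lay above Control replicates 1, 2 and 4, and Control replicate 3 lay above 3 of the 4 CoA rabbits, so the groups overlapped. The highest and lowest of the 11 arrays were 55.6-fold apart. The log2 fold change was 1.36 ± 1.10 in CoA vs Control (adjusted p = 0.578 in limma; exact permutation p = 0.314) and 2.41 ± 1.19 in Corrected vs Control (adjusted p = 0.626; exact permutation p = 0.171). In CoA vs Corrected it was -1.06 ± 1.19 (adjusted p = 1.00 in limma). Without CoA replicate 3 the value of CoA vs Control fell to 0.40, and without Corrected replicate 4 that of Corrected vs Control fell to 1.21.

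The spread of IL6 lay between rabbits and not between probes. Its 5 probes gave log2 fold changes from 1.36 to 1.54 in CoA vs Control and from 2.39 to 2.58 in Corrected vs Control, and every pair of them correlated with r of at least 0.993. The pooled SD within groups was 1.80 for the brightest probe, above that of 98.3% of all probes tested, whose median was 0.57. The same share was 94.4% for IL1B, 95.9% for SAA3, 91.2% for CCL2, 89.7% for IL1A, 88.6% for CXCL8 and 79.6% for TNF. The 1 probe of IL6 that passed the criterion in Corrected vs Control had a log2 fold change of 2.58 ± 1.15 (adjusted p = 0.596 in limma), and its 4 fellow probes missed it by p alone. With Corrected replicate 3, at 11.48, the brightest probe also passed, with a log2 fold change of 2.84 (adjusted p = 0.354 in limma).

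Control replicates 3 and 4 were the pair of arrays closest to each other. Over 8425 bright probes the robust SD of their log2 difference was 0.144, against 0.284 to 0.961 for other pairs of arrays. All 5 IL6 probes were nevertheless 4.72-fold to 7.89-fold higher on Control replicate 3. Of 27283 probes, 52 (0.191%) were more than 4-fold higher there, and 29 of the 52 were detected on both arrays. Of these 29, 9 had a symbol, namely the 5 IL6 probes and the probes of ABCB11, CSF2, LOC100009168 and SLC13A2. CSF2 encodes the cytokine GM-CSF, and LOC100009168 has the synonyms SAA1 and SAA2. The brightest CSF2 probe, which is another probe, read 5.81 on Control replicate 3 and 5.44 on Control replicate 4. IL1A, IL1B, TNF, CXCL8, CCL2 and SAA3 differed by at most 2.82-fold between these arrays, all of them higher on replicate 3.

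**Figure D2:**
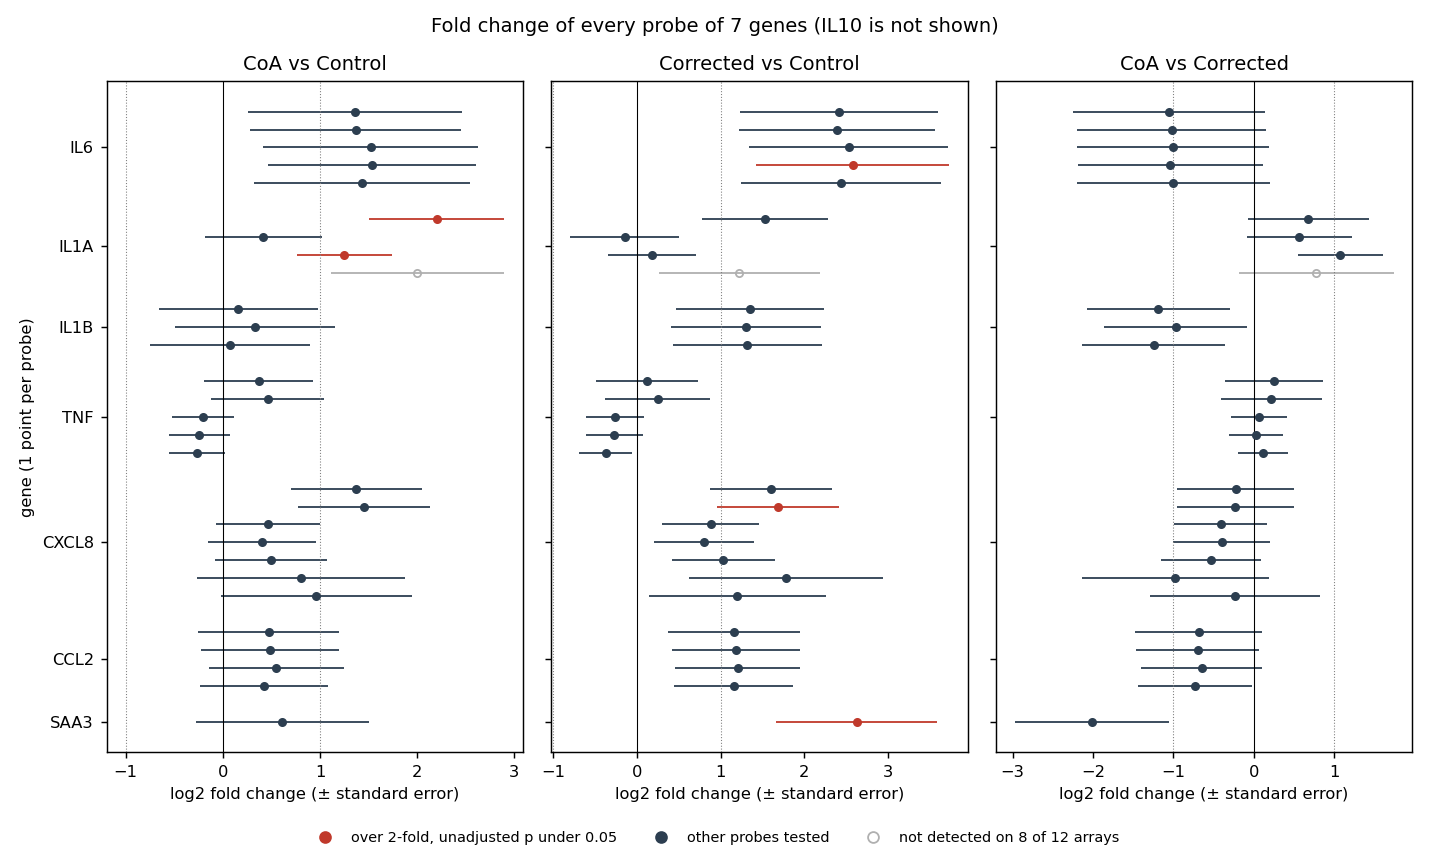
Each point is 1 probe of the gene named at the left, brightest probe on top, and the horizontal axis is its log2 fold change with its SE in the comparison named above. Red points passed a 2-fold change (dotted lines) at an unadjusted p under 0.05, and the open grey point, an IL1A probe, was not detected on 8 of 12 arrays and comes from the fit without that filter. The 5 IL6 probes and the 4 CCL2 probes lie together, while those of IL1A, TNF and CXCL8 spread.

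IL10, the cytokine that damps inflammation, was barely measurable. Its only probe was detected on Control replicates 1 and 4, at log2 signals of 3.09 and 3.18, and on none of the other 10 arrays. In Control replicates 2 and 3 the probe read 1.82 and 2.32, in CoA 3.02, 2.39, 3.98 and 3.01, and in Corrected replicates 1, 2 and 4 it read 3.17, 3.26 and 2.45. No CoA or Corrected array was well above background, and their readings overlapped those of Control, so no fold change is given.

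CXCL8, the neutrophil chemokine interleukin 8, was uniformly high in CoA on its brightest probe. The log2 signals were 8.38, 10.01, 7.85 and 7.41 in Control, 9.91, 9.99, 9.42 and 9.82 in CoA, and 9.59, 8.64 and 11.81 in Corrected replicates 1, 2 and 4. All CoA and Corrected rabbits lay above Control replicates 1, 3 and 4, and Control replicate 2 lay just above the highest CoA rabbit, so the groups overlapped through 1 Control array. The SD was 0.25 in CoA (n = 4) and 1.14 in Control (n = 4). The log2 fold change was 1.37 ± 0.68 in CoA vs Control (adjusted p = 0.381 in limma; exact permutation p = 0.143) and 1.60 ± 0.73 in Corrected vs Control (adjusted p = 0.600 in limma; exact permutation p = 0.229). Without Control replicate 2 CoA vs Control was 1.91, and without Corrected replicate 4 Corrected vs Control was 0.70. In CoA vs Corrected the log2 fold change was -0.23 ± 0.73.

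On all 7 probes of CXCL8 both operated groups had a higher mean than Control, by amounts that differed. The 2 brightest probes, with r = 0.997 between them, had log2 fold changes of 1.37 and 1.45 in CoA vs Control, the next 3 had 0.40 to 0.50, and the 2 dimmest had 0.81 and 0.96. These sets had 1.60 and 1.68, 0.80 to 1.03, and 1.78 and 1.20 in Corrected vs Control. Of the 7 probes, 1 passed the criterion in Corrected vs Control, with 1.68 ± 0.73 (adjusted p = 0.586 in limma). Correlations between probes of the gene ranged from 0.291 to 0.997. The even level of the CoA rabbits above most Control rabbits was not shared by the dimmer probes. On the third brightest probe Control replicates 2 and 3 read 7.43 and 7.32, within the CoA range of 7.02 to 7.81. On the 2 dimmest probes CoA replicate 2 was not detected and read 1.34 and 1.92, below every Control array.

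CCL2, the monocyte chemokine MCP-1, had 1 rabbit apart at each end. Log2 signals were 11.88, 9.56, 12.34 and 11.58 in Control, 12.05, 11.49, 12.20 and 11.50 in CoA, and 14.49, 11.40 and 11.60 in Corrected replicates 1, 2 and 4. Apart from Control replicate 2 at the low end and Corrected replicate 1 at the high end, the 9 other arrays lay within 11.40 to 12.34 and the groups were mixed. On the log2 scale the difference was 0.47 in CoA vs Control (SE 0.73) and 1.16 in Corrected vs Control (SE 0.79), with adjusted p = 0.792 and 0.735 in limma. Without Control replicate 2 CoA vs Control became -0.12, and without Corrected replicate 1 Corrected vs Control fell to 0.16. All 4 probes had their highest array in Corrected replicate 1 and their lowest in Control replicate 2.

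SAA3, an acute phase protein, was the only gene whose brightest probe passed the criterion in Corrected vs Control. Its log2 signal was 12.68, 8.46, 10.18 and 9.79 in Control, 11.43, 9.65, 11.21 and 11.28 in CoA, and 14.79, 11.82 and 12.11 in Corrected replicates 1, 2 and 4, with 12.86 in Corrected replicate 3. Every Corrected rabbit lay above every CoA rabbit and above Control replicates 2, 3 and 4, and Control replicate 1 lay above Corrected replicates 2 and 4. The log2 fold change of Corrected vs Control was 2.62 ± 0.96 (n = 3 and 4), or 6.17-fold, with an adjusted p of 0.531 in limma and an exact permutation p of 0.171. With Corrected replicate 3 it was 2.61 (adjusted p = 0.327 in limma). The criterion was missed without Control replicate 2, at 2.02, and without Corrected replicate 1, at 1.68, since the unadjusted p then exceeded 0.05. Within the 1 scan group that held both, the only Corrected array, replicate 2, was 1.50 above the mean of the 3 Control arrays.

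The CoA and Corrected groups did not overlap for SAA3, which was the case for 1 of the 28 member probes tested and for 4.21% of all probes. These groups shared no scan group, so scan group and treatment cannot be told apart here. Against Control, 0 member probes separated the groups in CoA (10.2% of all probes) or in Corrected (8.86%). Between CoA and Corrected the log2 fold change was -2.01 ± 0.96 (n = 4 and 3; adjusted p = 1.00 in limma). The exact permutation p was 0.0571, the smallest that 4 against 3 arrays can give. In CoA vs Control it was 0.61 ± 0.89 (adjusted p = 0.777 in limma), and it fell to 0.01 without Control replicate 2. The probe of LOC100009168, the only other serum amyloid gene found on the array and named here after its values were seen, had log2 fold changes of -0.07 ± 0.82 in CoA vs Control and 1.65 ± 0.89 in Corrected vs Control (adjusted p = 0.978 and 0.654 in limma). Its highest arrays were Corrected replicates 3 and 4, at 11.35 and 10.96, and not Corrected replicate 1, at 9.74.

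Across the 11 arrays the genes did not rise and fall as 1 group. By their brightest probes, IL6, IL1B, TNF and CXCL8, 4 of the 7 genes, were highest on Corrected replicate 4. CCL2 and SAA3 were highest on Corrected replicate 1, and IL1A on CoA replicate 4. The highest array was Corrected replicate 4 on 2 of 5 TNF probes and on 6 of 7 CXCL8 probes. On Corrected replicate 4, 4 of the 7 genes were more than 2-fold above their median over the 11 arrays, and on Corrected replicate 1 there were 3. No other array tested had more than 1. The excluded Corrected replicate 3 had 6 such genes. Corrected replicates 1, 3 and 4 were scanned together, while Corrected replicate 2, scanned with Control arrays, had 0 such genes. The part of the scan group in these readings was not tested. On Control replicate 4, 4 genes were more than 2-fold below the median, and on CoA replicate 3, where IL6 was 3.62 above its median, the other 6 genes were all within 1 of theirs.

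**Figure D3:**
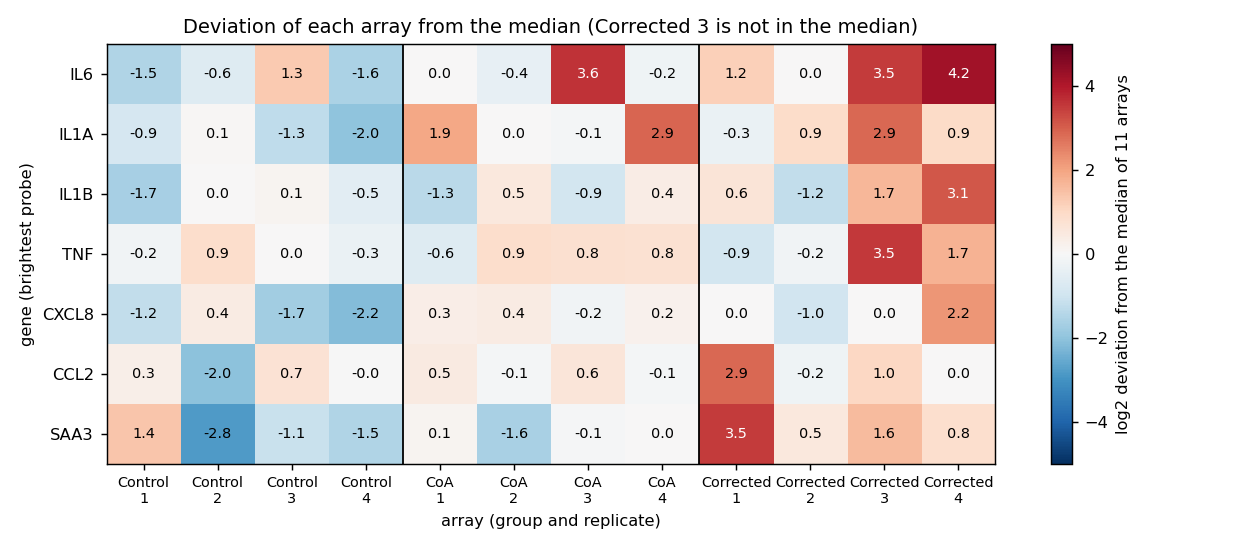
Each cell is the log2 deviation of 1 gene (row, brightest probe) on 1 array (column) from its median over the 11 arrays tested, red above and blue below, and vertical lines part the groups. Corrected replicates 3 and 4 are at or above the median for all 7 genes, Corrected replicate 1 is deepest red for CCL2 and SAA3, and on CoA replicate 3 IL6 is more than 2-fold above its median.

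Of the 21 pairs of the 7 genes, 17 correlated positively, with a median r of 0.264 and a range from -0.549 to 0.801. After adjustment over the 21 pairs, 0 passed at 0.05. CCL2 and SAA3 had the highest r, 0.80 (permutation p = 0.00839, adjusted p = 0.176), with Spearman's rho of 0.47 (permutation p = 0.145, adjusted p = 0.506). Without Control replicate 2 and Corrected replicate 1, the arrays farthest from the median of CCL2, r was -0.02, so the relation rested on those 2 rabbits. IL1B and CXCL8 had r = 0.66 (permutation p = 0.0291, adjusted p = 0.176) and rho = 0.47 (permutation p = 0.144, adjusted p = 0.506), and r fell to 0.18 without Control replicate 1 and Corrected replicate 4. IL1A and CXCL8 had r = 0.62 (permutation p = 0.0405, adjusted p = 0.176) and rho = 0.72 (permutation p = 0.0166, adjusted p = 0.349), with r = 0.58 without CoA replicate 4 and Control replicate 4. With the group means removed their r was 0.40. TNF and CXCL8 had r = 0.62 (permutation p = 0.0389, adjusted p = 0.176) and rho = 0.57 (permutation p = 0.0705, adjusted p = 0.506), with r = 0.57 without Corrected replicates 1 and 4 and 0.69 with the group means removed. IL1B and TNF had r = 0.61 (permutation p = 0.0419, adjusted p = 0.176) and rho = 0.43 (permutation p = 0.193, adjusted p = 0.506), and r fell to 0.22 without Control replicate 1 and Corrected replicate 4. TNF and CCL2 had the lowest r, -0.55 (permutation p = 0.0730, adjusted p = 0.223), with rho of -0.46 (permutation p = 0.154, adjusted p = 0.506) and r = -0.42 without the 2 farthest arrays.

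**Figure D4:**
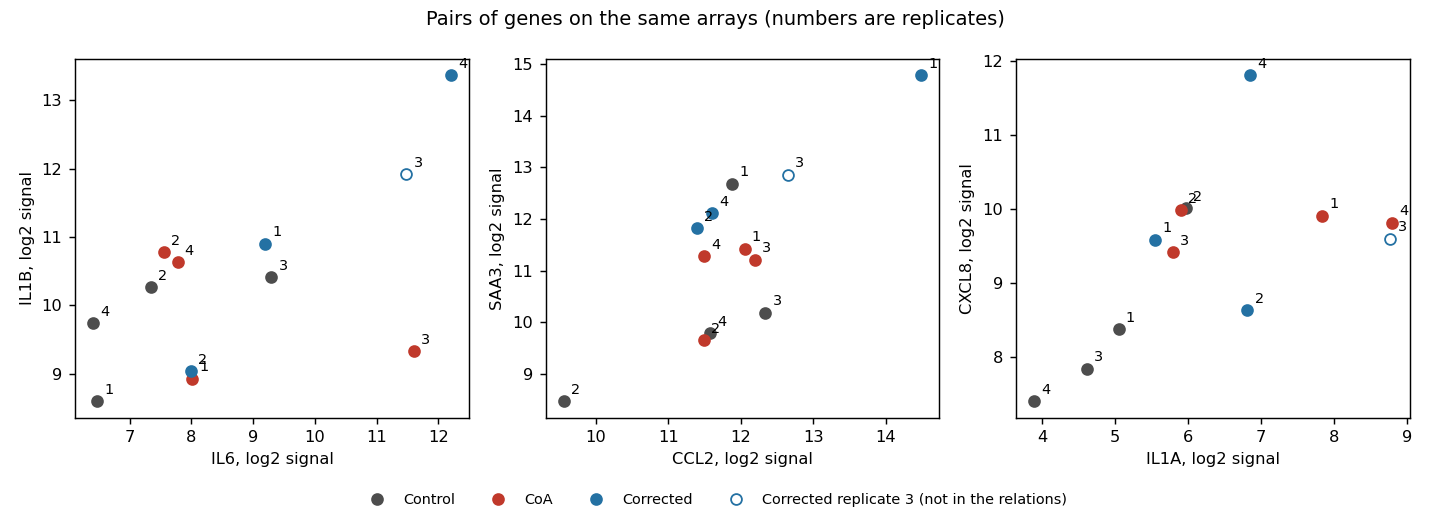
Each point is 1 rabbit, coloured by group and numbered by replicate, with the log2 signals of 2 genes (brightest probes) on the axes, and the open circle is Corrected replicate 3. CCL2 and SAA3 are tied by Control replicate 2 and Corrected replicate 1, and IL6 is high in CoA replicate 3 where IL1B is not.

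Of 946 other gene symbols with a tested probe, those most like each gene over the 11 arrays were described by Pearson's r with no test, since all share the same arrays. IL1B was closest to MMP9, a matrix metalloproteinase of neutrophils and macrophages (r = 0.94), then to PGA5 and IGLL1. TNF was closest to HORMAD2 (r = 0.84), then to LIF and CCL4, a cytokine and a chemokine, at r = 0.82 each. CCL2 was closest to NEDD8 and CD14, a coreceptor for endotoxin on monocytes, both at r = 0.82, then to EIF2B2. IL6 was closest to CRYBB2 (r = 0.87), SIDT1 and SLC22A3, and IL1A to SLC26A3 (r = 0.90) and CYP39A1. CXCL8 was closest to SELENOT (r = 0.92), ATP2A2 and SCNN1B, and SAA3 to SELENOM (r = 0.90), GABARAP and CAPNS1.

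In 4 lists of 166 other genes of the pathway, 44 genes had a named probe and 34 were tested, each by its brightest probe. The shares given beside them are of all probes tested and not of genes. In CoA vs Control 3 of the 34 genes passed the criterion upward and 1 downward, against 3.59% and 5.23% of all probes. In Corrected vs Control 4 passed upward and 1 downward, against 2.42% and 2.99%. In CoA vs Corrected 0 passed upward and 1 downward, against 1.44% and 1.33%. Their median log2 fold changes were -0.00, 0.19 and -0.02. Among 11 other cytokines and chemokines, CSF2, which encodes GM-CSF, passed in Corrected vs Control with 1.06 ± 0.34. Among 8 receptors, FPR1, the formyl peptide receptor of phagocytes, passed in CoA vs Corrected with -1.81 ± 0.73, while CXCR1 and CXCR2, the receptors of CXCL8, had 0.17 and 0.34 in CoA vs Control and did not pass. Of signalling genes only 2 were tested, JUN and FOS, which are among the subunits of AP-1. JUN passed in CoA vs Control with 1.39 ± 0.57 and FOS in Corrected vs Control with 2.08 ± 0.76. The values of JUN in Corrected vs Control and FOS in CoA vs Control were 1.26 and 1.35.

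Among 13 acute phase and inflammatory target genes, PTGS2, the inducible cyclooxygenase, passed in both comparisons with Control, with log2 fold changes of 1.01 in CoA and 1.03 in Corrected. TIMP1, an inhibitor of matrix metalloproteinases, also passed in both, with 1.12 and 1.05. MMP1, a collagenase, was lower in both, with -1.15 and -1.36. None of these genes passed adjustment in limma, where their adjusted p ranged from 0.287 upwards. The median of the 13 was -0.35 in CoA vs Control and 0.06 in Corrected vs Control.

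Markers of other cell types differed between the same arrays, and their part in the results for the cytokines was not tested. Of 14 neutrophil markers 6 were tested. The mean log2 signal of these 6 was 10.1 on Corrected replicate 4, against 5.53 to 7.64 on the other 10 arrays tested. It was 7.23 on Corrected replicate 3. Corrected replicate 4 was also where the brightest probes of IL1B, CXCL8, TNF and IL6 were highest. S100A9, a calcium-binding protein of neutrophils, read 13.32 on Corrected replicate 4 and 3.40 to 9.26 on the other 10. Of 14 macrophage markers 5 were tested, with a mean of 6.74 to 7.73 in Control, 7.45 to 8.58 in CoA and 7.50 to 8.02 in Corrected, and 1 of the 5 passed, SPP1 with 2.86 in CoA vs Control and 1.95 in Corrected vs Control. On Corrected replicate 3 the macrophage mean was 8.93. The only T cell marker tested, CD5, passed downward in both, with -1.27 and -2.41, 0 of 7 B cell markers had a named probe, and 1 of 6 smooth muscle markers, TPM2, passed in Corrected vs Control. Of 9 adipocyte markers 4 were tested, with means of 7.86 to 9.04 in Control, 5.17 to 7.98 in CoA and 6.81 to 8.92 in Corrected. In CoA vs Control 2 of the 4 passed downward, PPARG with -3.17 and ADIPOQ with -2.99, and in Corrected vs Control PPARG passed with -2.29. Of the other lists, 0 of 3 endothelial and 0 of 4 fibroblast and matrix markers passed in any comparison.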

How the data were processed

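Rings of aorta of 12 rabbits were measured on an Agilent rabbit array. The authors deposited what the scanner software Feature Extraction 11.0.1.1 wrote: the processed signal, an intensity corrected for background within each array and not normalised between arrays, and median intensities of spot and local background. Probes were named by matching their accession to the RefSeq gene table of the assembly mOryCun1.1, which is not the build of the array, so no coordinates are given. Sequences and promoter motifs were not used here.

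The log2 of the processed signal was quantile normalised over 12 arrays. Spots with an outlier flag were dropped, spots of 1 probe averaged, and probes with both detection flags on at least 8 arrays kept, 27287 of 43603. A linear model of 11 arrays was fitted in limma 3.58.1 (R 4.3.3), with two-sided moderated tests. As at the lowest threshold of the study, a probe was called at more than 2-fold and p under 0.05 unadjusted. The Benjamini-Hochberg adjusted p over all probes is given beside it. For 1 IL1A probe not kept by the filter the fit without it was used, and IL10, not kept either, was given no fold change. Single values were also compared by exact permutation, and pairs of genes by 100000 permutations, with Python 3.11.15, scipy 1.17.1, pandas 2.3.3 and numpy 2.4.6. Groups follow the labels, and Corrected replicate 3 is left out as its label says. The number of arrays, and the background for dim probes, limit the precision. Each array was counted as a separate rabbit. Control replicates 3 and 4, the closest pair of arrays, were also averaged into 1 sample as an alternative. Whether they are independent was not tested. The model was tested on simulated data.

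Named genes were the 8 members, genes of 4 pathway lists past the criterion, and the 3 symbols most like each member, of which 1 is not reported here. The members, lists and tests were chosen with earlier results of these data known. Arrays with the same scan time in the file headers were taken as a scan group, which may be a slide. Replicate numbers did not pair the arrays: over 10 pairs of arrays with the same number, the correlation of deviations from group means ran from -0.445 to 0.448. Alternatives varied the arrays used, normalisation, background correction, filter, test, blocks and single arrays left out.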

Additional observations from a re-analysis of the deposited data

Results flagged for a closer look

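In groups of 4 arrays, 16 were examined for a rabbit far from the others (by Dixon's ratio of the gap to the range), which chance finds in about 1 in 20 groups, and 3 were found, all in CoA. IL6 was 11.6 on CoA replicate 3, with a gap of 0.888 of the range. TNF was 6.79 on CoA replicate 1, below the rest by 0.918 of the range, and SAA3 was 9.65 on CoA replicate 2, below the rest by 0.880 of it. All values are log2 signals of the brightest probe.

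Corrected replicate 3, which was left out of the main fit, read above every Control array for 6 of the 8 genes. Its log2 signals were 11.5 for IL6 (highest Control 9.30), 8.77 for IL1A (5.97), 11.9 for IL1B (10.4) and 10.96 for TNF (8.30). For CCL2 and SAA3 it was only just above, at 12.6 (highest Control 12.3) and 12.9 (12.7). The share of its spots well above background, 45.6%, was the lowest of the 12 arrays, and its part in these readings was not tested.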

How the results depend on the processing

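The counts of calls are small and moved with most settings, and the cause of each change was not tested. Calls over all 27287 probes moved as well, not always with those of the members. With array weights 5212 were called in CoA vs Control, against 2405 as reported, and 11058 passed adjustment. With scan group as a random block 3222 were called in that comparison and 870 passed adjustment. The correlation within scan groups used in that setting was negative, -0.148. In Corrected vs Control 2362 were called without Corrected replicate 2 and 1107 with the replicate block, against 1475 as reported. Calls of member probes in CoA vs Control, 2 as reported, were 8 with all 12 arrays and array weights (8 also past adjustment, the only setting with any), 6 with scan group as a random block, 4 with only the 2 groups compared, and 1 with normexp, with detection on all 12 arrays, with the replicate block or with Control replicates 3 and 4 as 1 sample. They were 4 without Control replicate 2, Corrected replicate 2 or Corrected replicate 4, and 1 when Control replicate 1 or 4 or CoA replicate 1 or 4 was dropped. In Corrected vs Control, 3 as reported, they were 10 with all 12 arrays, 9 with the replicate block, 8 with scan group as a random block, 6 with scaling to the 75th percentile, 5 with array weights, 1 with Control replicates 3 and 4 as 1 sample, and 0 with the unmoderated test or scan group as a fixed block. They were 13 without Corrected replicate 2, 6 when replicate 3 of Control or of CoA was dropped, 5 when Control replicate 2 was, and 1 without Control replicate 1 or 4, CoA replicate 1 or 2, or Corrected replicate 1 or 4. In CoA vs Corrected, 0 as reported, they were 2 with array weights or scan group as a random block, and 1 with all 12 arrays, the 75th percentile, only the 2 groups or the replicate block. They were 4 without Corrected replicate 2 and 1 without Control replicate 1 or 2 or CoA replicate 2 or 3. The numbers do not pair the arrays: 4 of 11 correlated best with their own number. Signs turned in CoA vs Control for IL1B (-0.20 with weights, -0.22 to 0.49 leaving out 1 array) and CCL2 (-0.0222 with weights, -0.12 to 0.80). In Corrected vs Control they turned for IL1B (-0.50) and TNF (-0.28) with scan group as a fixed block, and for TNF as the mean of its probes (-0.11) and leaving out 1 array (-0.64 to 0.69). In CoA vs Corrected they turned for TNF with all 12 arrays (-0.58), and leaving out 1 array for IL6 (-2.01 to 0.15), TNF (-0.32 to 1.00), CXCL8 (-0.91 to 0.67) and CCL2 (-1.24 to 0.31). IL10, detected on 2 of the 12 arrays, was left out of these alternatives.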
